A study of Homo sapiens with 12 samples.

Results

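The Notch genes reported here are 10 of the 20289 genes in the deposited count table, picked by symbol: the ligands JAG1 and JAG2, the receptors NOTCH1, NOTCH2 and NOTCH3, the receptor-modifying sugar transferase LFNG, and the target genes HES1, HES4, HEY1 and NRARP. Of these, 9 had enough counts to be tested and NOTCH3 did not. Notch is a receptor that is read out by being cut: a ligand on a neighbouring cell pulls on it, ADAM proteases and gamma-secretase release its intracellular part, and that part enters the nucleus and joins the DNA-binding protein RBPJ and a Mastermind (MAML) protein to switch on genes such as those of the HES and HEY families. Fringe enzymes add a sugar to the receptor that changes which ligands it answers to. In glioblastoma the pathway is best known for its activity in stem-like tumour cells.

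The study sequenced RNA in 12 libraries, 3 in each of 4 groups, from the established human glioblastoma line U251. All cells had received a lentivirus with a short hairpin RNA, which lowers the RNA it matches. The hairpin was either a control (genotype WT, shCtrl in the titles of the DMSO libraries and NC in those with the drug) or one against CD44, a cell-surface receptor for hyaluronan (genotype CD44 knockdown). Each kind of cell was kept for 24 h with 50 µM temozolomide, a DNA-alkylating drug used against glioblastoma, or with DMSO, its solvent. A group is named by its hairpin and its treatment, as in knockdown DMSO or control temozolomide, and its libraries are numbered 1 to 3. Whether these libraries come from separate cultures is not stated in the labels, so p-values measure the spread between them, which may be technical. They also do not say whether the knockdown cells are a clone.

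The sum of estimated counts per library lay between 13.5 and 24.8, in units of 1e6. A count of 3, taken as the floor, is therefore 0.12 to 0.215 CPM (counts scaled to a library total of 1e6). The target of the hairpin, CD44, had a mean of 1091 CPM in control DMSO and 420 CPM in knockdown DMSO, and of 821 CPM and 326 CPM under temozolomide. CD44 shares exon bases with an antisense gene, CD44-AS1, which has no row in the table. Of 13 glial and glioblastoma markers, 8 to 9 averaged at least 1 CPM in each group, among them VIM at 2442 to 3885 CPM and SOX2 at 262 to 410 CPM. GFAP reached at most 1.8 CPM, and OLIG2 and CHI3L1 were at 0 in 11 libraries. Summed markers of other cell types differed between the groups. The sum of 8 endothelial markers was 43.1 to 49.2 CPM in control and 32.5 to 33.7 CPM in knockdown cells under DMSO. Under temozolomide it was 21.4 to 24.8 CPM in control and 16.3 to 17.9 CPM in knockdown cells. CDH5 made up most of it (12.2 to 46.2 CPM), so the sum mostly follows that 1 gene. KDR reached 1.86 CPM and TEK 2.21 CPM, while PECAM1 and VWF stayed at or below 0.915 and 0.468 CPM and TIE1 was at 0 in 6 libraries. The number of these markers averaging at least 1 CPM went the other way with knockdown. It was 2 in control and 3 in knockdown cells under DMSO, and 1 and 3 under temozolomide. The sum of 8 immune markers was 15.6 to 17.3, 23.0 to 26.3, 13.7 to 16.4 and 24.3 to 27.4 CPM in the same order. CD68 made up most of it, and CD3E, AIF1 and MS4A1 were at 0 in all 12 libraries. The sum of 8 pericyte and smooth muscle markers was 9.34 to 10.4 CPM in control and 11.7 to 14.3 CPM in knockdown cells under DMSO. With the drug this sum was 9.25 to 9.5 CPM in control and 10.5 to 13.5 CPM in knockdown cells. In bulk RNA, fewer cells that express a gene and less of its RNA per cell cannot be told apart.

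With CD44 knockdown under DMSO both Jagged ligands rose, NOTCH2 rose slightly, and NOTCH1, LFNG, HES1, HEY1 and NRARP fell. HES4 was the 1 tested Notch gene that was not called, with a value of 0.39 on the log2 scale. A gene was called where edgeR's quasi-likelihood test gave a Benjamini-Hochberg adjusted p below 0.05 over all 12821 genes tested. Of the 9 tested Notch genes, 8 were called, 3 higher and 5 lower. Of all genes tested 42.6% were called, 21.1% higher and 21.4% lower. The median absolute log2 fold change was 0.43 over the 9 Notch genes and 0.17 over all genes tested. The groups of libraries did not overlap for any of the 9, with knockdown above control for 4 and below it for 5, against 25.8% and 25.5% of all genes tested. These 9 were picked with earlier results of these data known. The shares and medians here and in the other comparisons therefore describe them. They do not test whether Notch genes respond more than other genes.

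Under temozolomide the same comparison called 6 of the 9, again with JAG1, JAG2 and NOTCH2 higher and now with NOTCH1, HES1 and HEY1 lower, against 42.3% of all genes tested (22.0% higher and 20.3% lower). The libraries did not overlap for 3 that were higher and 4 that were lower, as for 26.4% and 24.4% of all genes. The median absolute log2 fold change was 0.29 over the Notch genes and 0.16 over all genes. The drug itself went with lower levels of a few members. In control cells JAG1, LFNG and HEY1 fell, 3 of 9, close to the 27.5% of all genes that were called (11.7% higher and 15.8% lower). The libraries did not overlap for 4 that were lower and 0 that were higher, as for 21.6% and 18.1% of all genes. The median absolute log2 fold change with the drug in control cells was 0.13 over the Notch genes and 0.13 over all genes. In knockdown cells JAG1, NOTCH1 and HEY1 fell, 3 of 9 against 22.3% of all genes (9.05% higher and 13.2% lower). There the libraries did not overlap for 4 that were lower and 1 that was higher, NRARP, as for 19.8% and 17.5% of all genes. In knockdown cells the same median was 0.31 over the Notch genes and 0.12 over all genes. In either kind of cell edgeR called 0 Notch genes higher with the drug. Of all genes, 11.7% were called higher in control and 9.05% in knockdown cells. Over 9 genes a count of 0 is close to those shares. With library totals as the scaling, NOTCH2 was called higher in control cells (0.09). The comparisons with control DMSO share those 3 libraries, as do those with each of the other groups, so their values are given side by side.

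**Figure D1:**
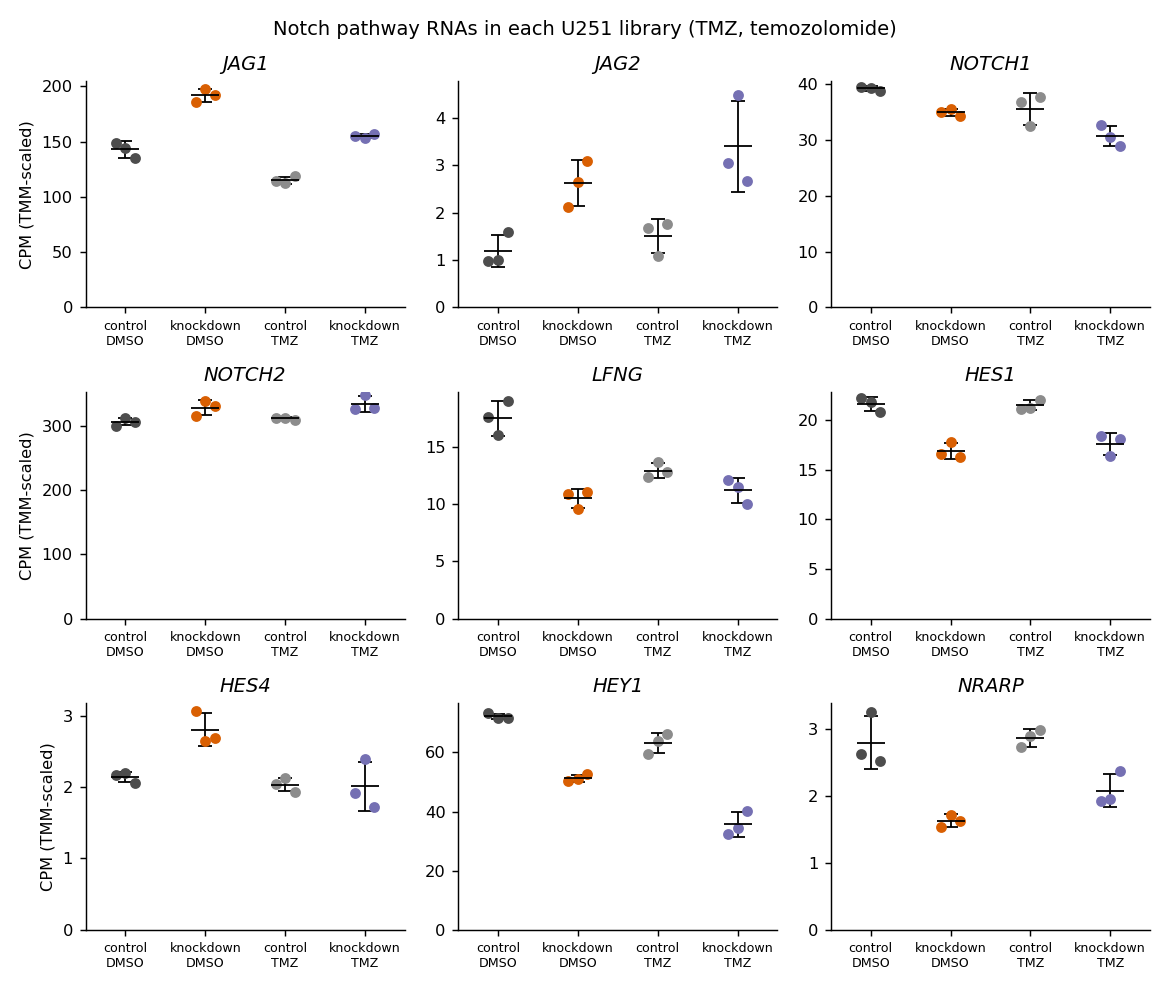
CPM (scaled by TMM, linear axes from 0) of the 9 tested Notch genes in each of the 12 libraries, with points for libraries, a line for the group mean and bars for 1 SD (n = 3). JAG1 and JAG2 sit higher in knockdown than in control cells under both treatments, and HES1 and HEY1 sit lower.

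**Figure D2:**
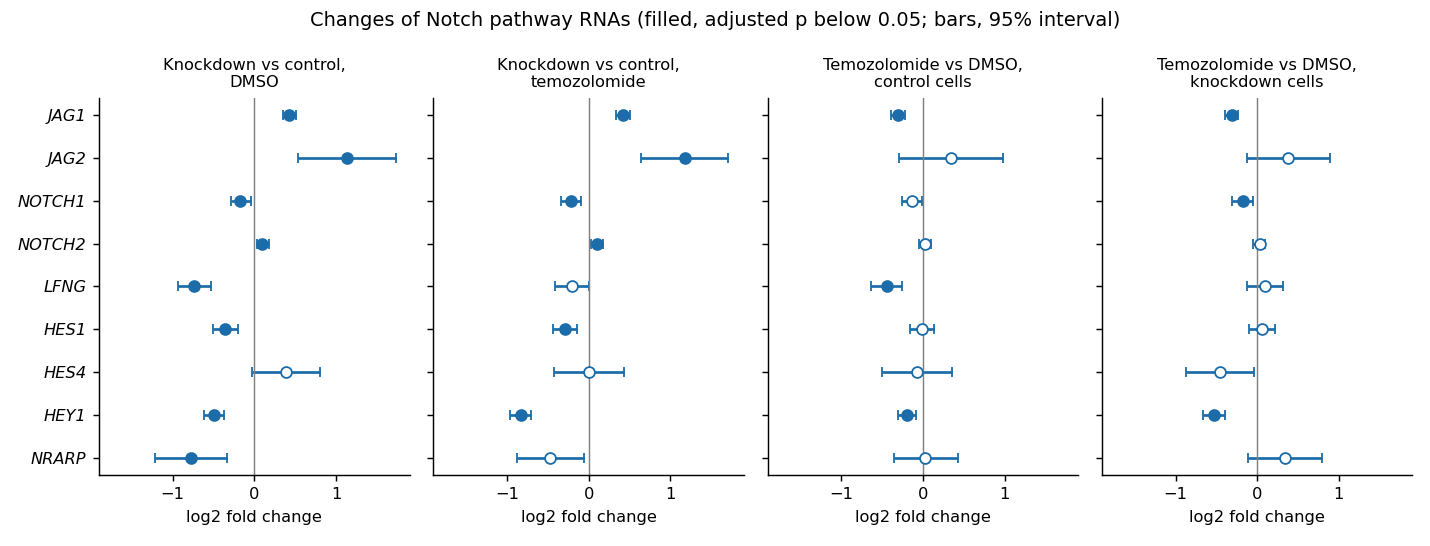
Log2 fold change of each tested Notch gene in the 4 comparisons of 2 groups, with bars for the 95% interval and filled points for genes called by edgeR. JAG1 lies at 0.43 and 0.42 with knockdown and at -0.31 with temozolomide in both kinds of cell.

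Among the ligands, JAG1 was abundant and JAG2 scarce. JAG1 (ENSG00000101384, chr20:10637684-10673999, minus strand, GRCh38) encodes Jagged1, a membrane-bound Notch ligand. It had 149, 144 and 135 CPM in control DMSO and 186, 198 and 192 CPM in knockdown DMSO. With temozolomide it had 114, 113 and 119 CPM in control cells and 155, 153 and 157 CPM in knockdown cells. The 4 groups did not overlap, and temozolomide libraries lay below the DMSO libraries of the same cells. Knockdown raised JAG1 1.34-fold under both treatments, a log2 fold change of 0.43 under DMSO (SE 0.04, edgeR's Benjamini-Hochberg adjusted p = 2.2e-08) and 0.42 under temozolomide (edgeR adjusted p = 3.5e-08). Temozolomide lowered it to 80.9% of its DMSO level in control cells and 80.6% in knockdown cells, a log2 fold change of -0.31 in each (edgeR adjusted p = 1.1e-05 and 6.1e-06). The difference between these 2 responses was -0.01, with a 95% interval of -0.12 to 0.11. JAG1 shares exon bases with an antisense gene, AL050403.2, which has no row in the table, and the library kit was taken not to mark the strand.

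JAG2 (ENSG00000184916, chr14:105140981-105168824, minus strand) encodes the second Jagged ligand. Under DMSO, control libraries held 15, 15 and 27 counts and knockdown libraries 32, 43 and 61, or 0.987, 0.995 and 1.59 CPM against 2.13, 2.64 and 3.1 CPM. Under temozolomide it had 1.68, 1.09 and 1.76 CPM in control cells and 3.05, 4.49 and 2.66 CPM in knockdown cells. Knockdown libraries were above control libraries under both treatments, with a wider spread than for JAG1. The rise was 2.21-fold under DMSO (log2 1.14, SE 0.29, edgeR's Benjamini-Hochberg adjusted p = 0.00284) and 2.25-fold under temozolomide (log2 1.18, SE 0.26, edgeR adjusted p = 0.000832). On the log2(FPKM + 1) scale, which understates changes of scarce genes, the same rises were 0.27 and 0.35 and were still called by limma. Temozolomide gave log2 values of 0.34 in control and 0.38 in knockdown cells, neither called (edgeR adjusted p = 0.437 in control cells), and the libraries overlapped. JAG2 shares exon bases with the non-coding AL512356.1, which is not in the table.

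The receptors moved little. NOTCH1 (ENSG00000148400, chr9:136494433-136545786, minus strand), a receptor, had 39.5, 39.3 and 38.7 CPM in control cells under DMSO, where knockdown cells had 35.0, 35.5 and 34.3 CPM. Under temozolomide control cells had 36.8, 32.4 and 37.7 CPM and knockdown cells 32.6, 30.6 and 28.9 CPM. The 2 lowest libraries had both knockdown and the drug, but under temozolomide the control and knockdown libraries overlapped. The log2 fold change with knockdown was -0.17 under DMSO (SE 0.06, edgeR's Benjamini-Hochberg adjusted p = 0.0336) and -0.22 under temozolomide (edgeR adjusted p = 0.00717). The call under DMSO was lost when any 1 of the 6 libraries compared was left out, with DESeq2, with library totals as the scaling and in the fits to FPKM. A correction for GC content brought the value to -0.04. NOTCH1 transcripts have 62.9% GC. To compare libraries by GC, each gene's log2 CPM was taken relative to its own mean over the 12 libraries. On that scale genes above 60% GC averaged 0.07 to 0.21 above genes below 40% GC in control DMSO libraries. The same difference was -0.1 to -0.04 in knockdown DMSO libraries. Under temozolomide the knockdown call was lost in the fits to FPKM, with values of -0.14 and -0.18. The drug lowered NOTCH1 in knockdown cells by 0.18 on the log2 scale (edgeR adjusted p = 0.0383), a call lost with DESeq2 (-0.20), with library totals as the scaling (-0.12), in the fits to FPKM, and without any 1 of the knockdown DMSO libraries or knockdown temozolomide library 2 or 3. The value with the drug in control cells, -0.13, was not called (edgeR adjusted p = 0.106).

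NOTCH2 (ENSG00000134250, chr1:119911553-120069626, minus strand), the receptor with the most RNA here, had 300, 311 and 306 CPM in control DMSO and 315, 338 and 330 CPM in knockdown DMSO. After temozolomide NOTCH2 had 312, 312 and 309 CPM in control cells and 325, 348 and 328 CPM in knockdown cells. Knockdown libraries lay just above control libraries, by 1.07-fold under both treatments. The log2 fold change was 0.10 in each (edgeR's Benjamini-Hochberg adjusted p = 0.0236 under DMSO and 0.021 under temozolomide). Leaving out control DMSO library 1, or knockdown DMSO library 2 or 3, ended the call under DMSO, with values of 0.08 to 0.10, and without knockdown temozolomide library 2 the value under the drug was 0.07 and not called. NOTCH2 is the 1 member with fractional estimated counts, in all 12 libraries, which arise where reads are shared with other genes. The genome holds near-identical partial copies of it, so its level is uncertain. NOTCH3 (ENSG00000074181, chr19:15159038-15200981, minus strand), a receptor known from pericytes and vascular smooth muscle, had 1, 0 and 2 counts in control cells under DMSO, where knockdown cells had 3, 1 and 0. Under temozolomide control cells had 1, 2 and 1 counts and knockdown cells 8, 9 and 0. Of these 12 libraries, 2 exceeded 3 counts, and no change was detectable at this depth.

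LFNG (ENSG00000106003, chr7:2512529-2529177, plus strand) encodes lunatic fringe, the enzyme that lengthens a sugar on the receptor. It had 17.6, 16.0 and 19.0 CPM in control DMSO and 10.9, 9.53 and 11.1 CPM in knockdown DMSO. LFNG under temozolomide had 12.4, 13.7 and 12.8 CPM in control cells and 12.1, 11.5 and 9.98 CPM in knockdown cells. Control DMSO libraries stood above all the others. Knockdown lowered LFNG to 59.9% of control under DMSO, a log2 fold change of -0.74 (SE 0.10, edgeR's Benjamini-Hochberg adjusted p = 3.5e-06). Its transcripts have 62.7% GC, and this call held under every alternative, the GC correction among them. Apart from fits without 1 library, the values were -0.74 to -0.61. Under temozolomide the value was -0.20 (SE 0.10, edgeR adjusted p = 0.111), although the libraries did not overlap. The drug lowered LFNG to 73.8% in control cells (log2 -0.44, edgeR adjusted p = 0.00136) and gave 0.09 in knockdown cells, which was not called. The difference between the drug responses was 0.54 (95% interval 0.25 to 0.83, SE 0.14), with an unadjusted p of 0.000959 in edgeR's test and an adjusted p of 0.0589.

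The target genes are the closest RNA readout of the pathway, and RBPJ is known to bind the sequence TGGGAA. The 250 bases before the start sites of 4 members are printed 5′ to 3′ in lower case, with matches to those letters in capitals. They are given to show a run of letters that HES1 and HES4 share, beside an LFNG window with 1 match and an NRARP window with none. With knockdown under DMSO HES1, LFNG and NRARP fell and HES4 was not called (0.39). Whether a match bears on these changes was not tested. The sequences come from RefSeq promoters on GRCh38.p14 and end at the base before the start site, except that HES4 is printed without the last 45 bases of its window. The RefSeq start of HES4 lies inside the GENCODE span of the gene, so 75 bases of its window are inside that span and the match sits at the edge of it. The printed sequences lie at chr3:194135898-194136147 (plus strand) for HES1, chr1:1000143-1000347 (minus strand) for HES4, chr7:2517613-2517862 (plus strand) for the second LFNG start and chr9:137302272-137302521 (minus strand) for NRARP.
HES1: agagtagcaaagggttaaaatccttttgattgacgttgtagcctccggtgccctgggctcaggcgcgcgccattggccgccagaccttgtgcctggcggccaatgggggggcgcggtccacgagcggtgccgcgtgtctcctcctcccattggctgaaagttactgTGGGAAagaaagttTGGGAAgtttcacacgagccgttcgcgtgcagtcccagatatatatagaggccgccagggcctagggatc
HES4: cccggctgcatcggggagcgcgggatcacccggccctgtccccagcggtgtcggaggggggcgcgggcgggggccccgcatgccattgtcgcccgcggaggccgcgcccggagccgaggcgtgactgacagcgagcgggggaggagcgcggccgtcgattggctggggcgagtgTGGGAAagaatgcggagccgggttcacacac
LFNG second start: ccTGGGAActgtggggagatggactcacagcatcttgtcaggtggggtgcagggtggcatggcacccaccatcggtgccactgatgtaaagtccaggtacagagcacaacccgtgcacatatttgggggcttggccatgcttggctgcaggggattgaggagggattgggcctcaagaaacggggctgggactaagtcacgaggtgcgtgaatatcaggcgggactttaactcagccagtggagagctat
NRARP: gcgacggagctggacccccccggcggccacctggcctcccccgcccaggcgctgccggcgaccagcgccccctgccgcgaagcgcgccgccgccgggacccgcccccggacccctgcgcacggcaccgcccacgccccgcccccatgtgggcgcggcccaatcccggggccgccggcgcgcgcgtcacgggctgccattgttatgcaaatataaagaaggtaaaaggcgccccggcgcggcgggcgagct

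HES1 held 2 matches to TGGGAA, starting 84 and 70 bases before the start site, HES4 held 1 at 76 bases before its RefSeq start, and the second LFNG start held 1 at 248 bases. Both strands were searched, for these exact letters only. Other forms of the sequence were not counted, so a window without a match may still hold one. The upstream windows of JAG1, JAG2, NOTCH1, NOTCH2, NOTCH3, NRARP and the first LFNG start held none, and HEY1 was not searched. Of 35116 RefSeq promoter windows of the same length, 20.8% held TGGGAA, so a single match is common. The longer GTGGGAA, which contains TGGGAA, was in 5.4% of windows, and HES1 and HES4 each held 1. The HES1 window also held 3 matches to CACNAG, the N-box that HES proteins are known to bind, and 32.0% of all windows held at least 1. The longest run of letters common to HES1 and HES4 was tgTGGGAAagaa, 12 bases long, starting 86 bases before the HES1 start and 78 bases before the HES4 start. It occurred in 6 of the 35116 windows (0.0171%), 2 of which are HES1 and HES4 themselves, and it was picked as the longest run they share. A match is a run of letters, and binding was not measured.

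HES1 (ENSG00000114315, chr3:194136145-194138732, plus strand) encodes a repressor that holds back neuronal differentiation genes. It had 22.2, 21.8 and 20.8 CPM in control DMSO and 16.6, 17.8 and 16.3 CPM in knockdown DMSO. With temozolomide it had 21.1, 21.2 and 22.0 CPM in control cells and 18.4, 16.4 and 18.1 CPM in knockdown cells. Knockdown libraries were below control libraries under both treatments, and the drug groups overlapped the DMSO groups of the same cells. Knockdown lowered HES1 to 78.2% of control under DMSO (log2 -0.36, SE 0.07, edgeR's Benjamini-Hochberg adjusted p = 0.000615) and to 82.1% under temozolomide (log2 -0.29, edgeR adjusted p = 0.00308). The drug gave -0.01 in control and 0.06 in knockdown cells, neither called, and the difference between those responses had a 95% interval of -0.15 to 0.28.

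HES4 (ENSG00000188290, chr1:998962-1000172, minus strand), a relative of HES1 with no mouse counterpart, held 33, 33 and 35 counts in the control libraries under DMSO and 46, 43 and 53 in the knockdown libraries, or 2.17, 2.19 and 2.06 CPM against 3.06, 2.64 and 2.69 CPM. With temozolomide it had 2.04, 2.12 and 1.93 CPM in control cells and 1.92, 2.39 and 1.72 CPM in knockdown cells. Only knockdown DMSO stood apart from the other 3 groups. The log2 fold change with knockdown under DMSO was 0.39 (SE 0.20, 95% interval -0.03 to 0.80) and was not called (edgeR's Benjamini-Hochberg adjusted p = 0.133). At 73.9% GC its transcripts were the richest in GC among the members. With the correction for GC content the value was 0.60 and was called (edgeR adjusted p = 0.0183), and the fits to FPKM also called it. Under temozolomide the value was 0.00 (edgeR adjusted p = 0.992). The drug gave -0.07 in control cells and -0.45 in knockdown cells, neither called (edgeR adjusted p = 0.112 in knockdown cells).

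HEY1 (ENSG00000164683, chromosome 8, minus strand), a repressor related to the HES proteins, fell in all 4 comparisons. It had 73.3, 71.8 and 71.8 CPM in control DMSO and 50.4, 50.9 and 52.6 CPM in knockdown DMSO. Temozolomide libraries had 59.6, 64.0 and 66.2 CPM in control cells and 32.3, 34.4 and 40.3 CPM in knockdown cells. The 4 groups did not overlap, in the order control DMSO, control temozolomide, knockdown DMSO and knockdown temozolomide. Knockdown lowered HEY1 to 70.9% of control under DMSO (log2 -0.49, SE 0.06, edgeR's Benjamini-Hochberg adjusted p = 7.7e-07) and to 56.4% under temozolomide (log2 -0.83, SE 0.06, edgeR adjusted p = 7.4e-10). The drug lowered it to 69.6% in knockdown cells (log2 -0.53, edgeR adjusted p = 3.0e-06) and to 87.5% in control cells (log2 -0.20, edgeR adjusted p = 0.0132). The call in control cells was lost without control DMSO library 1 (-0.18), without control temozolomide library 1 (-0.15), with library totals as the scaling (-0.13) and in the fits to FPKM (-0.12).

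NRARP (ENSG00000198435, chr9:137300482-137302251, minus strand) encodes a small protein that binds the nuclear Notch complex and limits it, and is itself a Notch target. Under DMSO it held 40, 49 and 43 counts in control libraries and 23, 28 and 32 in knockdown libraries, or 2.63, 3.25 and 2.53 CPM against 1.53, 1.72 and 1.63 CPM. With temozolomide it had 2.73, 2.9 and 2.99 CPM in control cells and 1.92, 1.96 and 2.37 CPM in knockdown cells. Knockdown libraries were below control libraries under both treatments. Knockdown lowered NRARP to 58.0% of control under DMSO (log2 -0.78, SE 0.21, edgeR's Benjamini-Hochberg adjusted p = 0.00469). NRARP transcripts have 67.3% GC, so the GC difference between libraries given for NOTCH1 bears on it too. This call held under every alternative, the GC correction among them. Apart from fits without 1 library, the values were -0.78 to -0.33. That range includes fits to log2(FPKM + 1), which understate changes of scarce genes. NRARP averaged 1.02 FPKM in control DMSO and 0.61 FPKM in knockdown DMSO. Under temozolomide the log2 value was -0.47 (SE 0.20, edgeR adjusted p = 0.0594), which was not called with all libraries and was called without knockdown temozolomide library 3, at -0.56. The drug gave 0.03 in control and 0.34 in knockdown cells, neither called.

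Whether the drug acted differently in knockdown and control cells was tested as the difference of the log2 responses. No Notch gene was called by edgeR's quasi-likelihood test at a Benjamini-Hochberg adjusted p below 0.05, where 1.05% of all genes tested were. At an unadjusted p below 0.05 in edgeR's test there were 2, LFNG and HEY1. The share of all genes at that cut-off is not given here, so this count cannot be set against it. DESeq2 called 372 genes in all and 1 Notch gene, HEY1, and gave no adjusted p for LFNG. For HEY1 the difference was -0.34 (SE 0.09, 95% interval -0.51 to -0.16), with an unadjusted p of 0.000755 and an edgeR adjusted p of 0.0531. It was called at an adjusted p of 0.0164 by DESeq2, and the edgeR values ran from 0.00415 without a low-count filter to 0.146 without knockdown temozolomide library 1. For LFNG the edgeR adjusted p ran from 0.0283 without a low-count filter to 0.231 with the GC correction, under which the difference was 0.41. The direction of both held in each of these fits. The remaining 7 had edgeR adjusted p values of at least 0.527, and for NOTCH2 the interval was -0.10 to 0.10. The median absolute difference was 0.07 over the tested Notch genes and 0.11 over all genes tested.

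**Figure D3:**
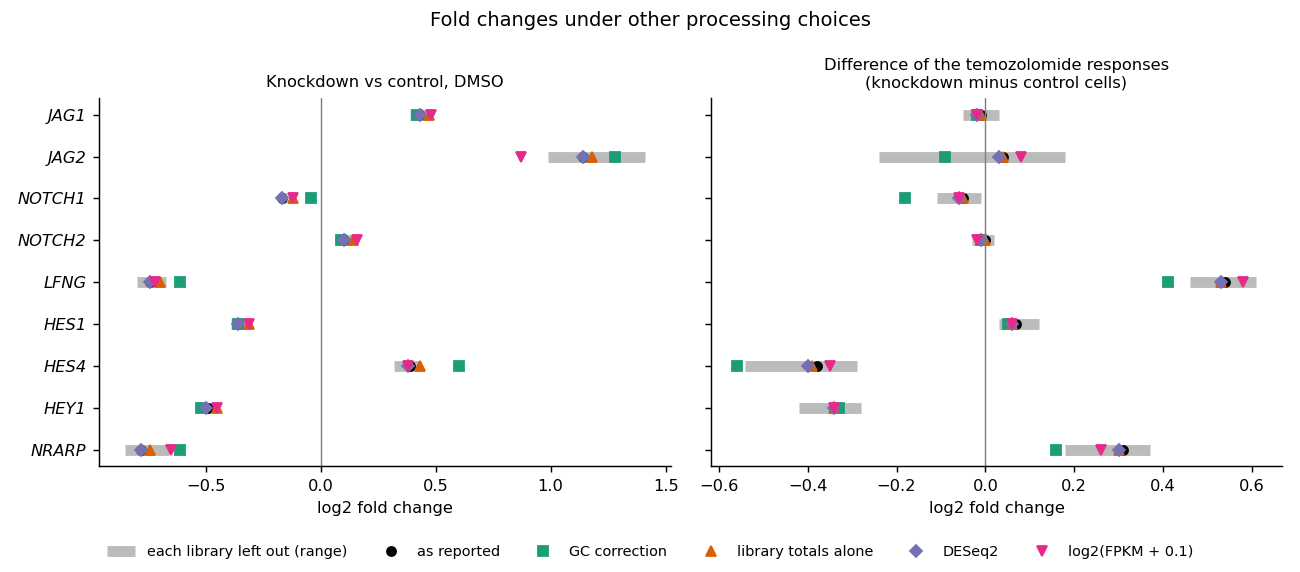
Log2 fold change of the 9 tested Notch genes with knockdown under DMSO (left) and the difference of the temozolomide responses (right), as reported and under 4 other processing choices, with grey bars for the range over fits that each leave out 1 library. NOTCH1 moves to -0.04 and HES4 to 0.60 with the GC correction on the left, and LFNG keeps a positive and HEY1 a negative difference on the right.

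Levels between genes can be compared only per length, here in FPKM. In control DMSO the order by mean FPKM was HEY1 (31.3 ± 0.467, SD, n = 3), NOTCH2 (26.4), JAG1 (23.5), HES1 (13.2), LFNG (7.81), NOTCH1 (4.01), HES4 (2.27), NRARP (1.02), JAG2 (0.203) and NOTCH3 (0.05). Every neighbouring pair in that order was separate over the 3 libraries. In knockdown DMSO JAG1 came first at 32.7 FPKM, followed by NOTCH2 at 29.5 and HEY1 at 23.0, again separate. In control temozolomide HEY1 at 28.9 and NOTCH2 at 28.5 FPKM overlapped. In knockdown temozolomide NOTCH2 led at 31.3 FPKM, ahead of JAG1 at 27.4 and HEY1 at 16.8, while NRARP at 0.817 and JAG2 at 0.61 overlapped. The order from HES1 down to NRARP was the same in all 4 groups.

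**Figure D4:**
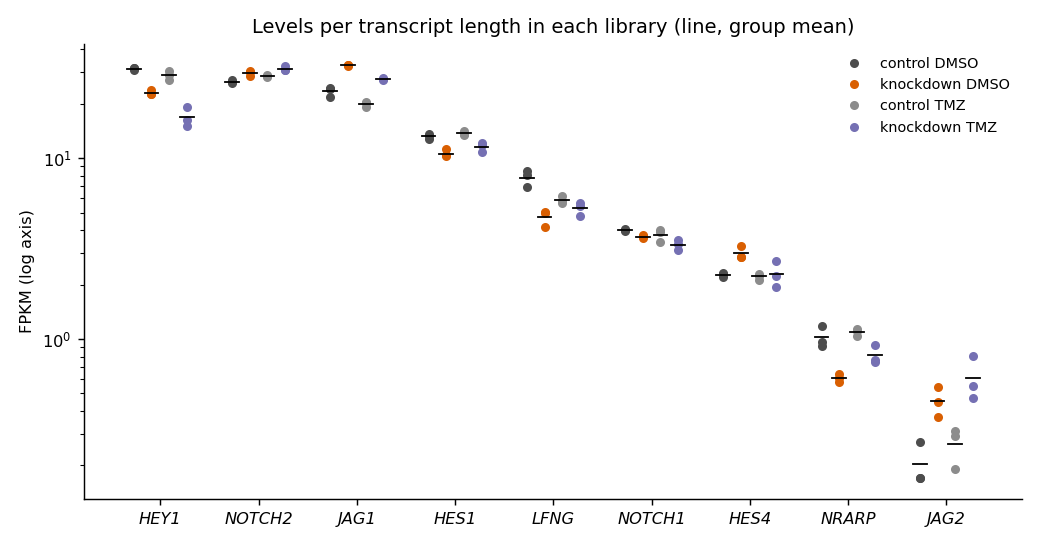
FPKM on a log axis for 9 Notch genes in every library, ordered by their level in control DMSO, with a line for each group mean. HEY1, NOTCH2 and JAG1 change places between groups, and JAG2 lies lowest in each.

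The libraries in which JAG1 was high were also those in which other genes were. Over the 12 libraries, the tested genes most like JAG1 in log2 CPM were SH3KBP1 (Pearson r = 0.985), SLC16A9 (0.985) and CAPN2 (0.983), and those most like HES1 were TSPAN12 (0.972), FZD1 (0.97) and TRAPPC9 (0.965). These describe libraries in 4 groups, so that any gene separating the same groups would score highly.

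The rest of the pathway was read from lists of genes that are not members. Their counts stand beside the shares of all genes tested that were called, which with knockdown under DMSO were 21.1% higher and 21.4% lower. Of 8 other receptors and ligands, 4 could be tested, with NOTCH4, DLL3, DLL4 and DLK1 too scarce, and 1 rose and 1 fell. Their median log2 fold change with knockdown under DMSO was 0.47, against 0.00 for all genes tested. DNER, a Delta-like and Notch-like membrane protein of neurons, rose from 4.74, 4.05 and 4.99 CPM to 14.0, 10.2 and 13.3 CPM (log2 1.44, edgeR's Benjamini-Hochberg adjusted p = 3.0e-08) and by 1.16 under temozolomide. DLL1, a Delta ligand, held 24, 25 and 25 counts in the control libraries under DMSO and 6, 5 and 13 in the knockdown libraries, a fall of 1.73 on the log2 scale (edgeR adjusted p = 0.000221). Its value under temozolomide, -0.55, was not called (edgeR adjusted p = 0.099). In knockdown cells the drug raised DLL1 by 1.48, to 26, 26 and 16 counts. Its direction with knockdown was thus opposite to that of both Jagged ligands.

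Of the 6 sugar transferases and maturation enzymes, 5 were tested. Under DMSO 1 rose and 2 fell, with a median of -0.13 (all genes: 21.1% higher, 21.4% lower, median 0.00). EOGT, which adds GlcNAc to the receptor's repeats, rose by 0.53 and POGLUT1, which adds glucose, fell by 0.43 (edgeR's Benjamini-Hochberg adjusted p = 5.5e-05 and 0.000115), and both calls were also made under temozolomide, at 0.42 and -0.47. POFUT1, the fucosyltransferase that prepares the site for fringe, fell by 0.14, a call lost in the fits to FPKM (-0.09). Of 8 proteases and gamma-secretase subunits, 1 rose and 2 fell, with a median of -0.03, against those shares of all genes. ADAM10, which makes the first cut, rose by 0.27 with knockdown under DMSO (edgeR adjusted p = 1.7e-05) and stood at -0.01 under temozolomide. APH1A, a gamma-secretase subunit, fell by 0.25 and by 0.30. PSENEN, another subunit, fell by 0.41, a call lost without control DMSO library 1 or 3, without knockdown DMSO library 3 and in the fits to FPKM. The drug responses differed between knockdown and control cells for ADAM10 (-0.27, edgeR adjusted p = 0.027) and for FURIN, the convertase that matures the receptor (0.26, edgeR adjusted p = 0.0426). Both of these calls were lost with the GC correction, at -0.16 and 0.14. The first was also lost without control DMSO library 1, knockdown DMSO library 1 or 3, control temozolomide library 2 or 3, or knockdown temozolomide library 1. The second was lost when any 1 library was left out other than control DMSO 2, control temozolomide 1 and knockdown temozolomide 3.

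The nuclear complex held the most members tested, 17, of which 2 rose and 6 fell with knockdown under DMSO (median -0.08), where 21.1% of all genes rose and 21.4% fell. KAT2B, an acetyltransferase of the active complex, rose by 0.39 under DMSO and 0.36 under temozolomide (edgeR's Benjamini-Hochberg adjusted p = 4.0e-07 and 5.8e-07). RBPJ itself rose by 0.22 under DMSO (edgeR adjusted p = 0.000623), a call that the unfiltered fit to FPKM did not make (0.28, limma adjusted p = 0.0617), and its value under temozolomide, 0.08, was not called (edgeR adjusted p = 0.136). MAML2, a co-activator, fell by 0.30 and 0.38. Of 13 tested genes for endocytosis, ubiquitin ligases and inhibitors, 4 rose and 2 fell (median 0.05), against those shares of all genes. DTX3L, a ubiquitin ligase of the Deltex family, rose from 36.1, 37.4 and 29.5 CPM to 69.2, 73.4 and 70.7 CPM (log2 1.05, edgeR adjusted p = 7.8e-08), while its relative DTX3 fell by 0.55. DTX4 fell by 0.85 under DMSO and 1.48 under temozolomide, calls that the fits to FPKM did not make, and the first was also lost without knockdown DMSO library 2 (-0.61).

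Of 16 other known Notch targets, 10 were tested, and 3 rose and 2 fell with knockdown under DMSO (median 0.04), near the 21.1% and 21.4% of all genes. CCND1, the cyclin D1 gene, rose from 198, 197 and 192 CPM to 308, 291 and 296 CPM (log2 0.61, edgeR's Benjamini-Hochberg adjusted p = 2.5e-10). GATA3 rose by 0.89 under DMSO and 1.04 under temozolomide. HEY2, the close relative of HEY1, fell by 0.77 (edgeR adjusted p = 0.00621) from 42, 47 and 58 counts to 30, 34 and 28, and its value under temozolomide, -0.42, was not called. MYC fell by 0.15 under DMSO, a call lost with library totals as the scaling, with DESeq2, in the fit to those groups alone, with the GC correction, in the fits to FPKM, and without control DMSO library 1 or 3 or knockdown DMSO library 1 or 3. With temozolomide 5 of the 10 fell in control cells and 0 rose (median -0.34), where 15.8% of all genes fell and 11.7% rose. Among the 5 were TNC, which fell by 0.62, and MYC, which fell by 0.46. HES5 and HEYL were among the 6 too scarce to test.

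Proneural and neuronal genes were mostly too scarce: of 10 listed, 8 could not be tested, among them NEUROG2, NEUROD1 and DCX. TUBB3, a neuronal tubulin, rose by 0.69 with knockdown under DMSO and by 0.75 under temozolomide (edgeR's Benjamini-Hochberg adjusted p = 1.6e-05 and 1.2e-06), and temozolomide raised it by 0.55 in control cells. The estimated counts of TUBB3 had fractions in every library, as those of NOTCH2 did, so its level is uncertain. HES6, which opposes HES1, fell by 0.40 under DMSO, a call lost with DESeq2, with the GC correction (-0.22), in the unfiltered fit to FPKM, and without control DMSO library 3 (-0.24) or knockdown DMSO library 2 or 3. Of 9 BMP-responsive genes, 7 were tested and 1 rose and 2 fell under DMSO (median -0.19), against the 21.1% and 21.4% of all genes. SMAD9 rose by 0.68 and SMAD6 fell by 0.70 (edgeR adjusted p = 0.00651 and 0.000196). ID1 fell by 0.22 under DMSO (edgeR adjusted p = 0.0276), a call lost with library totals as the scaling, with DESeq2, with the GC correction (-0.13), in the fits to FPKM, and without control DMSO library 1 or 2 or knockdown DMSO library 2 or 3. Under temozolomide ID1 moved the other way and rose by 0.22 (edgeR adjusted p = 0.022), a call lost with DESeq2 (0.21) and without control temozolomide library 2 (0.14) or 3 or knockdown temozolomide library 1 or 2. The difference of its drug responses was 0.44 (edgeR adjusted p = 0.0506).

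**Figure D5:**
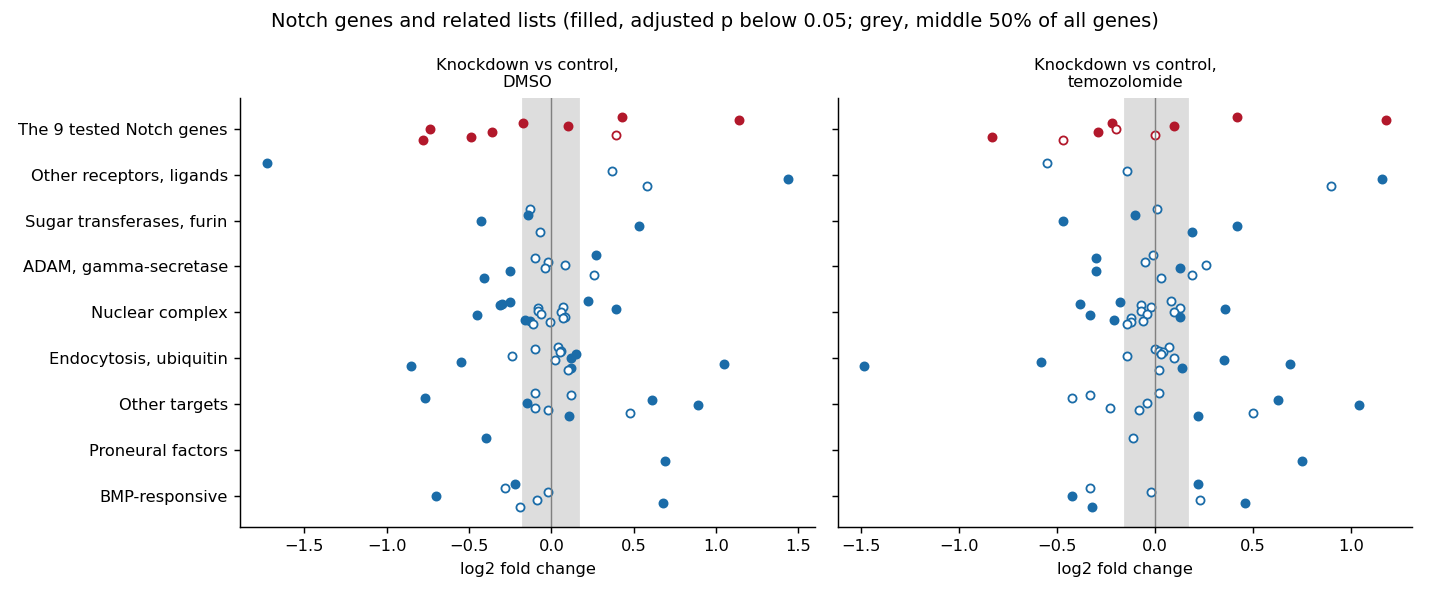
Log2 fold change with knockdown for the 9 tested Notch genes (red) and for the tested genes of 8 related lists (blue), under DMSO and under temozolomide, with filled points for genes called by edgeR and a grey band for the middle 50% of all genes tested. Each list holds genes on both sides of 0 under DMSO.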

How the data were processed

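Per the labels' protocols, poly(A) RNA was enriched with oligo(dT) beads, made into libraries with a NEBNext Ultra RNA kit, and sequenced on a NovaSeq instrument. The labels do not say whether strand was kept, and it was taken as not kept. The authors deposited estimated counts per gene (10.7% to 12.0% of a library's values have a fraction) and, in another table, FPKM. The tools RSEM, StringTie 1.3.1, HISAT2, Bowtie2 2.2.8 and fastp 0.18.0 are named per the submitters' processing notes, with no roles. Which build and annotation were used is not given in the sources used here. Gene locations come from GENCODE release 29 (GRCh38), matched by gene ID (20171 of 20289), and promoter sequences from RefSeq (GRCh38.p14), which held 9 of the 10 members.

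Groups came from the labels, and NC with temozolomide was read as the control hairpin. Estimated counts were rounded. R 4.3.3 with edgeR 4.0.16 filtered genes by filterByExpr (12821 kept), scaled by TMM and fitted 1 quasi-likelihood model of 4 group means to all 12 libraries, with Benjamini-Hochberg adjustment over all genes tested. The biological coefficient of variation was 3.9%. CPM are TMM-scaled. The procedure was tested on simulated data.

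The members and lists were chosen with earlier results of these data known. Named are all members, CD44, and from each list up to 2 genes per direction with the smallest p among those called with knockdown (either treatment) or with temozolomide in control cells, averaging 1 CPM or more in the higher group. The 3 genes most like HES1 and JAG1 are also named. The text describes most of these, and some items are not reported here. Alternatives were other scalings, DESeq2 1.42.0, other low-count filters, fits to the compared groups alone, a block for the replicate number, per-library GC splines (5 degrees of freedom), each library left out, limma 3.58.1 on FPKM with pseudocounts of 1 and 0.1 before taking log2, and a threshold of 0.01. To look for pairing, each gene's group mean was subtracted from its log2 CPM. The remainders correlated at -0.077 to 0.14 between libraries of the same number in different groups (18 pairs). The numbers were therefore not taken as pairs.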

Additional observations from a re-analysis of the deposited data

How the results depend on the processing

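No called value of a Notch gene changed sign under any alternative. Of 20 called results of Notch genes in the 4 comparisons of 2 groups, 14 stayed called under every alternative with an adjusted p and 6 did not: NOTCH1 in 3 comparisons, NOTCH2 in 2, and HEY1 with temozolomide in control cells. NOTCH2 also lost its call with knockdown under temozolomide without a low-count filter (0.09), with the GC correction (0.08), and without control temozolomide library 2 or 3 (0.10 each). Leaving out 1 library gave 6 to 8 Notch genes called with knockdown under DMSO, 5 to 7 with knockdown under temozolomide, and 2 to 3 with temozolomide in each kind of cell. Calls gained were HES4 with temozolomide in knockdown cells with the GC correction (-0.56; -0.58 with the block) and on log2(FPKM + 1) (-0.28), NOTCH2 with temozolomide in control cells with library totals (0.09), and NRARP with knockdown under temozolomide on log2(FPKM + 1) (-0.21). Over all genes, temozolomide called 3529 in control cells, or 2187 at an adjusted p below 0.01, and 2854 in knockdown cells, or 1578 at that threshold and 1875 on unfiltered log2(FPKM + 1). The difference between drug responses called 135 genes. It called 372 with DESeq2, 546 without a low-count filter, 35 with the GC correction, 3 on log2(FPKM + 1), 0 on log2(FPKM + 0.1) and on unfiltered FPKM, 13 at the threshold of 0.01, and 19 to 395 with 1 library left out. The 0 Notch genes called in it became 1 with library totals, 1 with DESeq2, 2 without a low-count filter, and 0 to 2 with 1 library left out. With the replicate number as a block the difference called 222 genes and 1 Notch gene, HEY1. With the block and the GC correction together it called 40 genes. After group means were subtracted, 6 of 12 libraries correlated best, among libraries of other groups, with a library of the same number. The causes were not tested. Depth limits NOTCH3 and leaves wide errors for JAG2, HES4 and NRARP.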
